A study of Mus musculus with 4 samples.

Results

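The receptor genes Flt3, Csf1r, Kit, Csf2ra, Csf2rb, Csf2rb2 and Csf3r were examined in 4 subsets of dendritic cells (DCs) of the mouse spleen. These 7 of 18193 named genes on the array were chosen by name as the receptors for Flt3 ligand, stem cell factor and the colony-stimulating factors. The choice was made with earlier results of these data known, and all 13 probe sets of these genes are reported. A probe set is a group of short oligonucleotides for 1 transcript; 12 of these have 1 gene symbol and 1 is assigned to both Csf2rb and Csf2rb2. Each subset was measured on 1 Affymetrix array, and the subsets are named CD8+CX3CR1+, CD8+CX3CR1-, CD4+ and DN, as in the sample titles. In work on splenic DCs, DN commonly means that CD4 and CD8 are both missing. All 4 came from spleens of Cx3cr1gfp/+ mice on the C57BL/6 background, which carry a green fluorescent protein gene in 1 of the Cx3cr1 alleles, were labelled as not treated with BMP4, and were sorted as cells high in CD11c. Thus every subset, the CX3CR1- one included, came from mice with a single intact copy of Cx3cr1. The labels do not state the age or number of mice, any pooling of spleens, or the sorting gates. With 1 array per subset there is no replicate, so the values carry no standard deviation and no p-value, and a difference describes 2 arrays.

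Flt3, Csf1r and Kit are receptor tyrosine kinases of 1 structural class. Flt3 takes up the signal of Flt3 ligand, on which the formation and upkeep of DCs depend, Csf1r that of M-CSF and interleukin 34, which maintain monocytes and macrophages, and Kit that of stem cell factor, which acts on blood progenitors and mast cells. The other members are cytokine receptors without a kinase of their own, which signal through JAK kinases and STAT factors: the GM-CSF receptor pairs the chain encoded by Csf2ra with the common beta chain encoded by Csf2rb, Csf2rb2 encodes a closely related mouse beta chain that serves interleukin 3, and Csf3r encodes the G-CSF receptor of neutrophils.

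The promoters of 4 members are shown because Flt3 and Csf2rb2 had the same order of signal over the arrays, Csf2ra lay lowest on the array where those were highest, and Csf3r was among the members with a difference of at least 4-fold. They are RefSeq windows of build GRCm38.p6, read 5′ to 3′ along the gene's strand, from 250 bases before the table's start of the gene to 30 bases after it. Capitals mark matches, on either strand, to GAGGAA, a core recognised by Ets factors such as PU.1, or to TTCNNNGAA, the palindrome of STAT factors; TGTGGT, a Runx core, was searched as well. The windows are chr5:147400460-147400739 (Flt3, minus strand), chr15:78305692-78305971 (Csf2rb2, minus strand), chr19:61228389-61228668 (Csf2ra, minus strand) and chr4:126024409-126024688 (Csf3r, plus strand).
Flt3: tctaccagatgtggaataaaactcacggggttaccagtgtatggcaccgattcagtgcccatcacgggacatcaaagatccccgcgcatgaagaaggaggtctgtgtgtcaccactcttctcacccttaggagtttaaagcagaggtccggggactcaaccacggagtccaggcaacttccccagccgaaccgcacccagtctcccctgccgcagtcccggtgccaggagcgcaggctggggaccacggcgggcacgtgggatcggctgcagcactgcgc
Csf2rb2: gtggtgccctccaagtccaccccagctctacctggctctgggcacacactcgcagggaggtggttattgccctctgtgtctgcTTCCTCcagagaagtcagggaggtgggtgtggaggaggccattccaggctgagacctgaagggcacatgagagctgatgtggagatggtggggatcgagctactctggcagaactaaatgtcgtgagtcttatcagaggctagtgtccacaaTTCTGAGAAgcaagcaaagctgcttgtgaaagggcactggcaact
Csf2ra: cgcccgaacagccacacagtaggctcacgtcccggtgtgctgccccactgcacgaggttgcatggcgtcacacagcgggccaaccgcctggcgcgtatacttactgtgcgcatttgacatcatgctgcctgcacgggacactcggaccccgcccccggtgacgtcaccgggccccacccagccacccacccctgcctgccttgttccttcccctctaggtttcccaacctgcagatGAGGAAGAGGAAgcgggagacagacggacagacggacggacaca
Csf3r: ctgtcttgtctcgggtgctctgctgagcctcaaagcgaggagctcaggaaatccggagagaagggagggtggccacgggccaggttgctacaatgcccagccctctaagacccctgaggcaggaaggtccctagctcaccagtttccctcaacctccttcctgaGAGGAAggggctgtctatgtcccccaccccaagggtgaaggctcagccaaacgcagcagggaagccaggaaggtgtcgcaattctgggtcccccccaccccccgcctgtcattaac

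Windows were used for 5 of the 7 members, these 4 and Kit. In the full 300 bases, GAGGAA stood in the windows of 4 of the 5 members and in 28.1% of all 32544 windows of this length. Csf2ra had 2 copies side by side, at 14 and 8 bases before the start, Csf3r 1 copy at 86 bases before it, and Kit 1 copy. Csf2rb2 had 2 matches on the other strand, at 167 bases before the start and at 30 bases after it, the second lying beyond the stretch printed. TTCNNNGAA stood in Csf2rb2 alone, at 15 bases before the start, and in 8.33% of all windows. TGTGGT was in none of the 5 members' windows and in 16.7% of all. The Flt3 window held none of the 3 motifs. These matches describe letters in the windows and say nothing of binding.

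The unit is the linear MAS5 signal. Signals under 55.3, the floor set from probe sets of genes not expected in spleen, were raised to it. Of the 18193 named genes, 12673 exceeded the floor somewhere among the 4 arrays and are called detected, the 7 receptor genes among them. Probe sets over the floor made up 41.2% to 42.7% on 3 arrays and 47.9% on the CD4+ array. That array also had the highest 3' to 5' ratio for Gapdh, 11.8 against 7.56 to 8.98 elsewhere, and for Actb, 2.86 against 1.79 to 2.32. Degraded RNA raises this ratio, and for Gapdh it was 7.56 or more on every array. The label field for the DC type names CD8+CX3CR1+ for the array titled CD8+CX3CR1- and CD4+ for the array titled DN. Groups follow the titles, with which the transcripts went: Cd8a was 2530 in CD8+CX3CR1+ and 4742 in CD8+CX3CR1- DCs against 18.7 in CD4+ and 130 in DN, Cd4 was 564 in CD4+ against 21.1 to 93.9 elsewhere, and Cx3cr1 was 894 in CD8+CX3CR1+ against 97.3 in CD8+CX3CR1-, 275 in CD4+ and 258 in DN. The 5 DC markers examined, such as Itgax and H2-Aa, were above the floor on all 4 arrays.

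**Figure D1:**
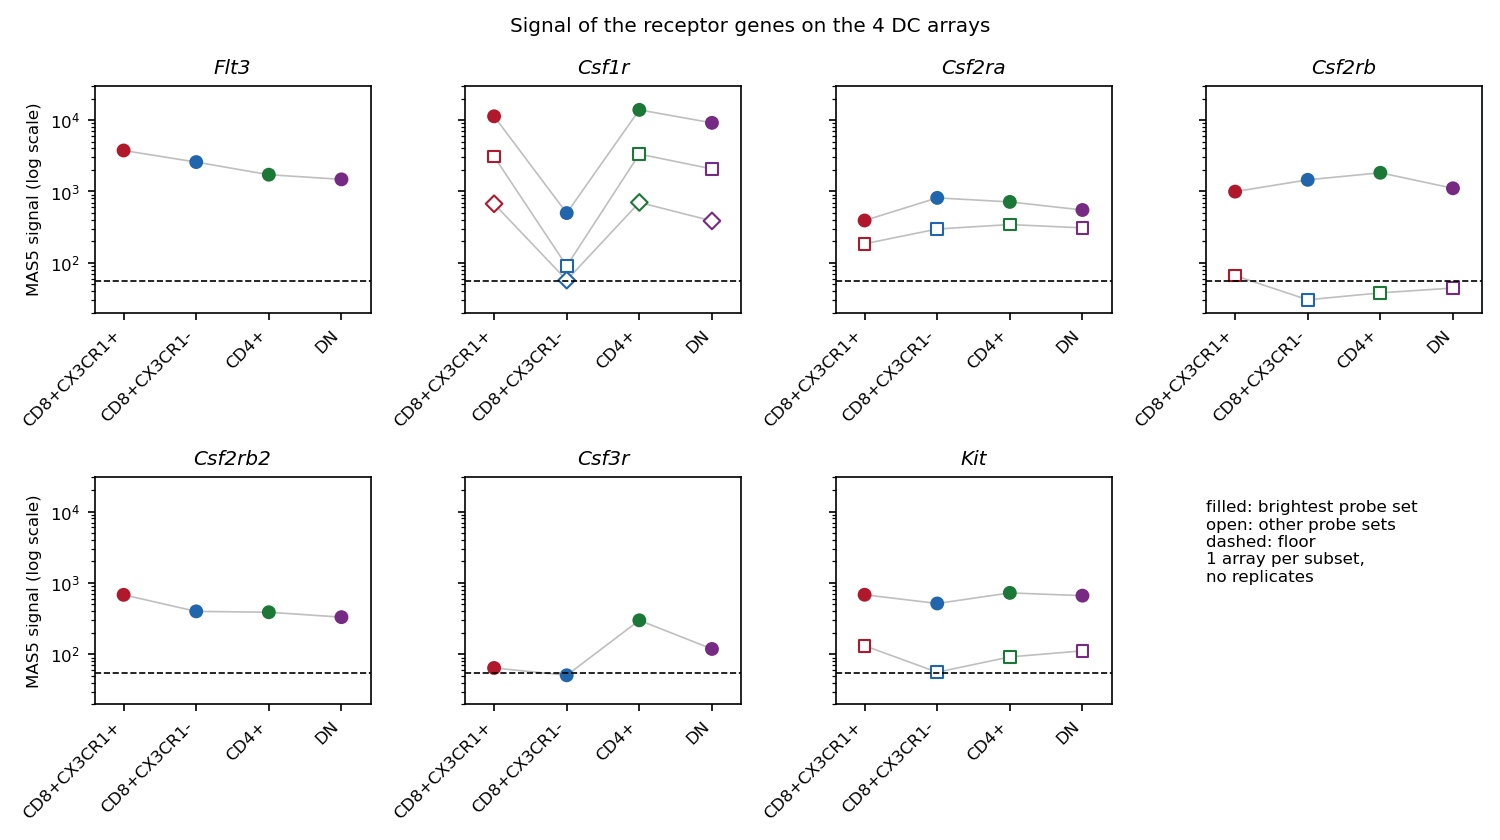
MAS5 signal (log axis) of each receptor gene on the 4 arrays, 1 point per array and probe set with 1 gene symbol. Filled points are the brightest probe set of a gene, open points its other probe sets, and the dashed line the floor of 55.3. The probe set assigned to both Csf2rb and Csf2rb2 is not drawn. Csf1r drops on the CD8+CX3CR1- array at all 3 probe sets (498, 90.6 and 57.2), Csf3r is highest on the CD4+ array (300), and the other genes vary by 1.41-fold to 2.54-fold; levels of different genes are not comparable.

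Csf1r had by far the widest range of the 7 receptor genes. Its signal was 11291 in CD8+CX3CR1+, 498 in CD8+CX3CR1-, 13894 in CD4+ and 9142 in DN DCs. Thus 3 arrays were high and close together, and CD8+CX3CR1- DCs stood 18.3-fold to 27.9-fold below them. Of the 12673 detected genes, 17, or 0.134%, had a range at least as wide. The further probe sets gave the same order of the arrays, with 3087, 90.6, 3336 and 2071 at the second and 672, 57.2, 702 and 387 at the third, in the order used above. The log2 difference between CD8+CX3CR1+ and CD8+CX3CR1- was 3.55 to 5.09 over the 3 probe sets (SD 0.78), against 4.50 at the brightest. In RNA of sorted populations, fewer cells with the transcript and less transcript per cell cannot be told apart.

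Among the high arrays the order of Csf1r was CD4+, CD8+CX3CR1+ and DN. The step from CD4+ to CD8+CX3CR1+ was 0.30 on the log2 scale at the brightest probe set and 0.06 to 0.11 at the others, and it turned to 0.03 and 0.08 in favour of CD8+CX3CR1+ when arrays were scaled to an equal median or quantile normalized. The step from CD8+CX3CR1+ to DN was 0.30 to 0.80 over the probe sets. As a measure of probe error, the root mean square over genes of the SD of a difference between probe sets was 0.46 to 0.60 in the 6 pairs of arrays. This error leaves out variation between arrays, sorts and mice, which 1 array per subset cannot give. The step from CD4+ to DN, 0.60 to 0.86, was slightly above the error of its pair, 0.54, at all 3 probe sets, but at the brightest it was 0.34 with quantile normalization and 0.32 with an equal median, below that error. The difference of CD8+CX3CR1- from DN, at -4.51 to -2.76, was several times the error of its pair, 0.53.

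Markers of monocytes and red pulp macrophages, cells that depend on this receptor, did not all follow it. The summed signal of 9 monocyte markers was 4228 in CD8+CX3CR1+, 5956 in CD8+CX3CR1-, 9586 in CD4+ and 5986 in DN DCs, with 7, 6, 8 and 7 of them above the floor. That of 11 red pulp macrophage markers was 2589, 1030, 4374 and 2253 in the same order, with 9, 5, 8 and 5 above it. This full macrophage sum ranked the arrays as Csf1r did. The gene with the largest signal summed over the arrays was Lyz2 (1736, 1652, 7284 and 2834) for monocytes and Adgre1 (578, 143, 3068 and 1692) for macrophages. They were not the largest on every array. In CD8+CX3CR1- DCs Treml4 (2124) was above Lyz2 and Vcam1 (513) above Adgre1, and in CD8+CX3CR1+ DCs C1qb (742) was above Adgre1. Without Lyz2 and Adgre1, a choice made after the data were seen, the monocyte sums were 2492, 4305, 2301 and 3151. The macrophage sums were then 2011, 887, 1306 and 561, so neither had the order of Csf1r. Of the other monocyte markers, Fcgr4 (278, 97.1, 461 and 236) and Ace (150, 22.9, 226 and 113) had that order. Treml4 (196, 2124, 399 and 456) and Cd14 (449, 1089, 197 and 395) were highest in CD8+CX3CR1- DCs. Ccr2 was highest in CD8+CX3CR1+ and Nr4a1 in DN DCs, and Fcgr1 was above the floor in CD4+ DCs alone. In DN DCs, where Csf1r was 9142, the macrophage markers above the floor were Adgre1, Vcam1 (109), Slc40a1 (105), Spic (79.6) and C1qb (70.2), and the other 6 were at or under it, among them C1qa (40.0) and C1qc (14.1). In CD8+CX3CR1+, CD8+CX3CR1- and CD4+ DCs, C1qa was 197, 27.9 and 203 and C1qb 742, 60.0 and 358. On these arrays C1qc was 185, 6.6 and 206 and Cd5l 177, 34.7 and 148. Vcam1 (291, 513 and 142) and Hmox1 (47.4, 71.6 and 4.8) were highest in CD8+CX3CR1- DCs. The part of these cells in the signal of Csf1r was not tested.

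Flt3 was well above the floor in all subsets and highest in CD8+CX3CR1+ DCs. Its only probe set read 3749 in CD8+CX3CR1+, 2580 in CD8+CX3CR1-, 1717 in CD4+ and 1477 in DN DCs. Both CD8+ arrays lay above both others. The highest was 2.54-fold above the lowest, and 14.1% of detected genes had a range at least as wide. CD8+CX3CR1+ exceeded CD4+ by 1.13 on the log2 scale and DN by 1.34, which 6.63% and 2.20% of detected genes matched or passed in size in the same pairs. Steps between neighbours in this order were 0.54, 0.59 and 0.22, about as large as the probe error or below it, and with the arrays scaled to an equal median the last step turned to -0.06, DN then lying above CD4+.

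The summed signal of 7 markers of plasmacytoid DCs, a lineage that also carries Flt3, was 1607 in CD8+CX3CR1+, where Flt3 was highest, against 812 in CD8+CX3CR1-, 591 in CD4+ and 733 in DN DCs. Of these markers 5, 5, 5 and 4 were above the floor. Siglech, a defining one, was 206 in CD8+CX3CR1+ and 63.6 in CD8+CX3CR1- and under the floor on the others, and Bst2 (660, 236, 89.8 and 232), Ccr9 (328, 179, 87.8 and 192) and Klk1 (249, 187, 138 and 124) were highest in CD8+CX3CR1+ DCs as well. Pacsin1 (18.5, 23.3, 86.0 and 40.2) and Cox6a2 (91.3, 69.4, 161 and 79.8) were highest in CD4+ DCs, and Ly6d was under the floor everywhere. The part of plasmacytoid DCs in the signal of Flt3 was not tested.

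Kit was detected in each subset and, at the brightest probe set of each gene, varied least of the receptor genes. At its brightest probe set the signal was 684 in CD8+CX3CR1+, 516 in CD8+CX3CR1-, 726 in CD4+ and 664 in DN DCs. The range was 1.41-fold, and 68.2% of detected genes had one at least as wide. The dimmer probe set read 132, 56.2, 92.1 and 112, so that CD8+CX3CR1- was the lowest at both, by a log2 difference of 0.41 and 1.23 below CD8+CX3CR1+. The order of the other 3 arrays differed between the probe sets and, between CD4+ and both CD8+CX3CR1+ and DN, turned with the arrays scaled to an equal median (0.25 for CD8+CX3CR1+ against CD4+ and -0.15 for CD4+ against DN) and with the probe sets averaged (0.22 and -0.08). The summed signal of 8 mast cell and basophil markers was 156 in CD8+CX3CR1+, 190 in CD8+CX3CR1-, 354 in CD4+ and 179 in DN DCs, with 0, 0, 3 and 1 of them above the floor. Those above it in CD4+ DCs were Hdc (128), Mcpt8 (69.0) and Mcpt4 (57.1), while the defining markers Cpa3, Tpsb2 and Ms4a2 were under it in all 4 subsets. The 8 progenitor markers summed to 3056, 1992, 2316 and 2314 in the same order, with 3, 1, 2 and 3 above the floor. Most of that sum was Cd48, which DCs also express. Meis1 (75.3, 48.6, 94.5 and 89.7), close to the floor, was lowest in CD8+CX3CR1- DCs, as Kit was. Hoxa9 (73.7, 6.4, 39.7 and 67.8), also close to it, was under the floor in both CD8+CX3CR1- and CD4+ DCs. Cd34, Gata1, Tal1, Slamf1 and Mecom were under the floor in every subset. The part of such cells in the signal of Kit was not tested.

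The chains of the GM-CSF and interleukin 3 receptors each varied by about 2-fold, in different orders. Csf2ra, the chain that binds GM-CSF, was 392 in CD8+CX3CR1+, 813 in CD8+CX3CR1-, 714 in CD4+ and 550 in DN DCs. CD8+CX3CR1+ DCs were the lowest, 2.07-fold below CD8+CX3CR1-, and its second probe set, at 185, 298, 344 and 309, gave that array as the lowest too. CD8+CX3CR1+ lay below CD4+ by 0.86 and 0.89 on the log2 scale at the 2 probe sets, and below DN by 0.49 and 0.74. Among the other 3 arrays the order differed between the probe sets, and the log2 difference between CD8+CX3CR1- and CD4+ was 0.19 at the brighter and -0.21 at the dimmer.

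Csf2rb, the common beta chain, was 995 in CD8+CX3CR1+, 1456 in CD8+CX3CR1-, 1827 in CD4+ and 1108 in DN DCs. Its range of 1.84-fold was matched or passed by 36.0% of detected genes. Neighbours in the order CD4+, CD8+CX3CR1-, DN and CD8+CX3CR1+ were 0.33, 0.39 and 0.16 apart on the log2 scale, each less than the probe error, and the first of these steps turned to 0.02 in favour of CD8+CX3CR1- with the arrays scaled to an equal median. A second probe set was above the floor on the CD8+CX3CR1+ array alone (66.3), with 30.4, 38.0 and 44.4 on the CD8+CX3CR1-, CD4+ and DN arrays. Averaging both probe sets turned 3 pairs: it put CD8+CX3CR1+ above CD8+CX3CR1- by 0.29 and above DN by 0.21, and gave -0.08 for CD8+CX3CR1- against DN. The widest difference, CD8+CX3CR1+ against CD4+, went from -0.88 to -0.04 with that averaging.

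Csf2rb2, the beta chain for interleukin 3, was 682 in CD8+CX3CR1+, 400 in CD8+CX3CR1-, 389 in CD4+ and 332 in DN DCs. CD8+CX3CR1+ DCs were the highest here, above the next array by 0.77 on the log2 scale, while the other 3 lay within 0.27 of each other. In 5.30% of detected genes the log2 difference between CD8+CX3CR1+ and DN was at least as large as its 1.04. The order was that of Flt3, and the root mean square distance between the profiles of these genes over the 4 arrays, each centred on its mean, was 0.23 on the log2 scale. Csf2ra and Csf2rb, which form the GM-CSF receptor, were 0.22 apart. These were the smallest distances among the members, taken at the brightest probe sets. How often other detected genes lie this close was not examined. The distance of Csf2rb2 from Csf2rb was 0.63. The step of Csf2rb2 from CD4+ to DN turned to -0.05 with the arrays scaled to an equal median. Csf2rb and Csf2rb2 are near-identical copies; the probe set assigned to both was under the floor on all 4 arrays (18.8 to 45.9), and how far the other probe sets pick up the copy was not tested.

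Csf3r was highest in CD4+ DCs and at or near the floor in both CD8+ subsets. Its only probe set read 64.5 in CD8+CX3CR1+, 50.9 in CD8+CX3CR1-, which is under the floor, 300 in CD4+ and 119 in DN DCs. CD4+ was 2.52-fold above DN, 4.66-fold above CD8+CX3CR1+ and at least 5.43-fold above CD8+CX3CR1-. A range at least as wide was found in 2.71% of detected genes. The step from CD4+ to DN, 1.33 on the log2 scale, and that from DN to CD8+CX3CR1+, 0.89, were larger than the probe error over genes. With its only probe set, Csf3r has no such error of its own. Both CD8+ arrays lay at or near the floor and have no order. Scaling the arrays to an equal median gave -1.89 for CD8+CX3CR1+ against CD4+, under 4-fold.

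Neutrophils are the main carriers of Csf3r, so their markers are given beside it. The summed signal of 9 of them was 229 in CD8+CX3CR1+, 332 in CD8+CX3CR1-, 360 in CD4+ and 211 in DN DCs, with 1, 3, 2 and 1 above the floor. The sum was highest in CD4+ DCs, as Csf3r was, and almost as high in CD8+CX3CR1- DCs, where Csf3r was under the floor. Without Ltf, the gene with the largest signal summed over the arrays, the sums were 173, 285, 267 and 142, highest in CD8+CX3CR1- DCs. Leaving it out was decided after the data were seen. In CD8+CX3CR1- DCs the 3 above the floor were S100a8 (82.1), Ngp (82.0) and Cxcr2 (56.1), with Ltf (47.7) under it. In CD4+ DCs the granule protein genes Ltf (93.7) and Ngp (89.9) were above the floor, whereas S100a8 (29.7) and S100a9 (32.1), among the most abundant transcripts of neutrophils, were under it, as were Mpo and Elane in all 4 subsets. The CD4+ array is also the one with most probe sets over the floor and the highest Gapdh ratio. Its sum of monocyte markers was the highest too, through the lysozyme gene Lyz2 (7284 against 1652 to 2834). Without Lyz2 that sum was lowest in CD4+ DCs, at 2301 against 2492 to 4305. The part of other cells or of these array features in the signal of Csf3r was not tested.

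The 6 pairs of arrays gave 42 differences for the 7 genes, of which 5 were at least 4-fold, the size at which a difference was called, and 31 were under 2-fold. Those 5 belong to Csf1r and Csf3r. The pairs share arrays, so their values are given side by side and are not independent. Between CD8+CX3CR1+ and CD8+CX3CR1- DCs, 1 of 7 was called higher (Csf1r, 22.7-fold) and 0 lower, where 1.67% of detected genes were called higher and 1.15% lower. Between CD8+CX3CR1+ and CD4+, 0 were called higher and 1 lower (Csf3r), against 0.395% and 0.379% of detected genes. CD8+CX3CR1+ and DN differed by 4-fold in 0 members either way, against 0.276% higher and 0.134% lower. CD8+CX3CR1- had 0 members called higher than CD4+ and 2 lower (Csf1r, 27.9-fold, and Csf3r, at least 5.43-fold), against 1.18% and 1.80%. Against DN it had 0 higher and 1 lower (Csf1r, 18.3-fold), against 0.742% and 1.28%. CD4+ and DN gave 0 both ways, against 0.0710% and 0.181%. The median range over the arrays was 2.07-fold for the 7 members and 1.61-fold for all detected genes, of which 4.66% reached 4-fold.

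**Figure D2:**
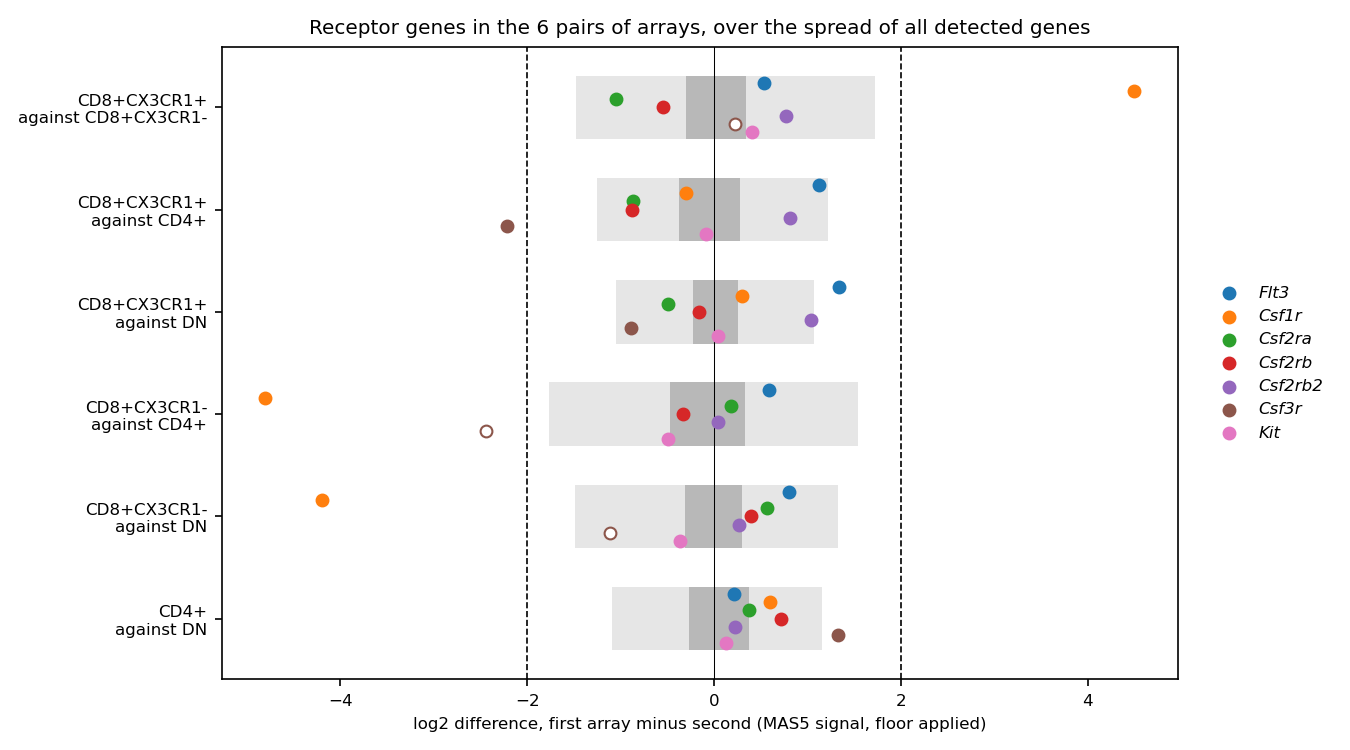
Log2 difference of each receptor gene in the 6 pairs of arrays (horizontal axis, first array minus second), over the central 95% (light bars) and central 50% (dark bars) of all 12673 detected genes, those under the floor on both arrays counted as 0. Open points are bounds and dashed lines mark 4-fold; Csf1r lies past them in the 3 pairs with the CD8+CX3CR1- array (4.50, -4.80 and -4.20) and Csf3r in the 2 pairs of CD4+ with a CD8+ array (-2.22 and -2.44).

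For the members with a range of at least 4-fold, the 5 detected genes with the nearest profile, passing over RIKEN, Gm and LOC names, were taken by the root mean square distance between centred log2 profiles over the 4 arrays. Nearest to Csf1r was Fcer1g, whose product is the signalling chain of several Fc receptors, at a distance of 0.13, with signals of 3693, 126, 3903 and 2649 on the CD8+CX3CR1+, CD8+CX3CR1-, CD4+ and DN arrays. Ddit4, an inhibitor of mTORC1 signalling, followed at 0.17, the C-type lectin gene Clec4a3 at 0.22, Dennd3 at 0.23 and Cd7 at 0.25. CD8+CX3CR1- was the lowest for each of the 5, by 31.1-fold from the highest array for Fcer1g, 21.0-fold for Ddit4 and 29.5-fold for Dennd3. Clec4a3 (34.8) and Cd7 (41.0) were under the floor there, so their folds are bounds, at least 26.1-fold and at least 18.6-fold. Nearest to Csf3r was the interferon-stimulated gene Ifit2, at 0.07, with 217, 176, 932 and 421 in the same order. Trem3 (0.09), Dnah2 (0.13), Lyz2 (0.13) and Hoxa3 (0.17) came next. In both CD8+ subsets Trem3 and Hoxa3 lay under the floor and Dnah2 just above it (55.9 and 60.2), so for these the match rests on the CD4+ and DN arrays. Each distance is a description over 4 points, drawn from 12673 genes.

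**Figure D3:**
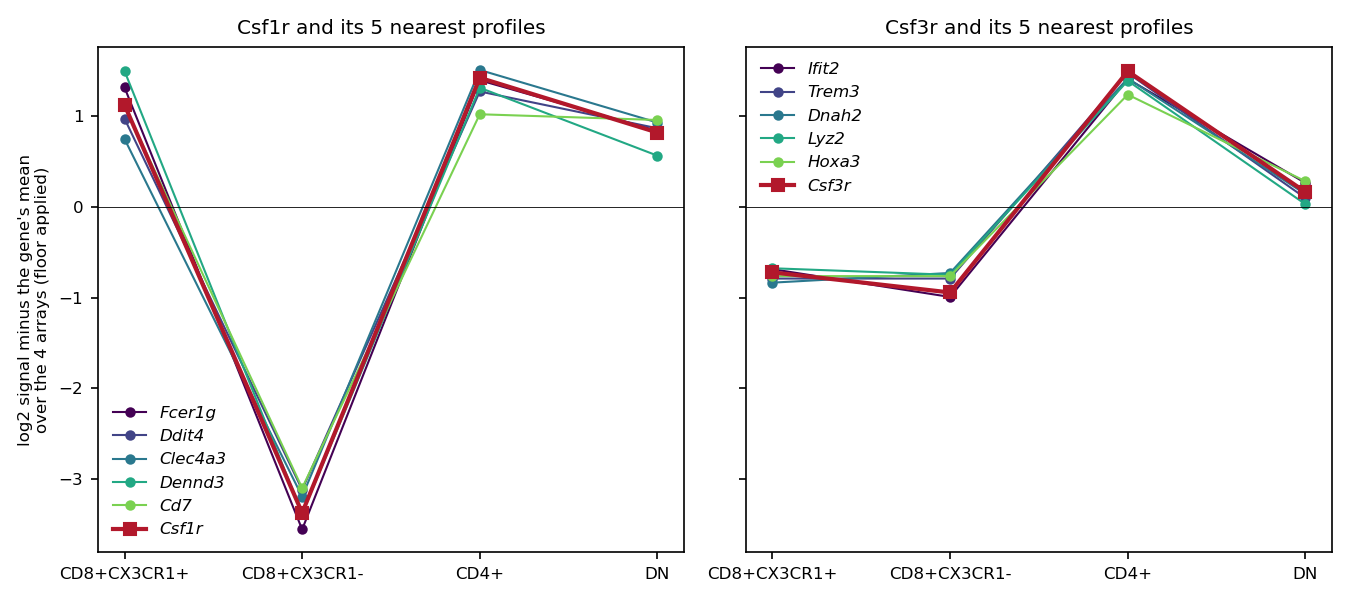
Log2 signal of Csf1r (left) and Csf3r (right), each minus its mean over the 4 arrays, with the 5 nearest profiles. Csf1r and its neighbours, from Fcer1g (distance 0.13) to Cd7 (0.25), dip on the CD8+CX3CR1- array, and Csf3r and its neighbours peak on the CD4+ array.

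The ligands were hardly seen in the DCs themselves. Of 7 ligand genes with a probe set of 1 symbol, Il34, Csf2, Csf3, Il3 and Il5 were under the floor on all 4 arrays. Csf1, which encodes M-CSF, was 57.0 in CD8+CX3CR1+, 37.4 in CD8+CX3CR1-, 78.5 in CD4+ and 71.4 in DN DCs. Kitl, which encodes stem cell factor, was above the floor on the CD8+CX3CR1- array alone (82.2). Both thus lay close to the floor, and Flt3l was not analysed here. Of the related receptors, Il5ra and Pdgfrb were under the floor throughout. Il3ra, the interleukin 3 receptor chain that pairs with the beta chains, was 34.0, 60.2, 67.7 and 16.2 in the order CD8+CX3CR1+, CD8+CX3CR1-, CD4+ and DN, and Pdgfra, a kinase of the class of Csf1r, 63.9, 99.2, 112 and 53.2. Neither was called in any pair. With DN under the floor, the 1.22-fold of Il3ra between CD4+ and DN is a lower bound, and with no floor that log2 difference was 2.06, past 4-fold.

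Of 18 detected genes that relay the signal, 15 had a range under 2-fold and 1, Stat5a, was at least 4-fold apart in a pair, a share near the 4.66% of all detected genes. Stat5a, a STAT factor used by most of these receptors, was 364 in CD8+CX3CR1+, 71.0 in CD8+CX3CR1-, 253 in CD4+ and 187 in DN DCs. It was thus lowest where Csf1r was lowest, as were 8 of the 18 genes. Stat5a lay there 5.13-fold below CD8+CX3CR1+, and with its probe sets averaged the log2 difference was 1.17, under 4-fold. Over the list the median log2 difference in this pair was 0.22, beside 0.00 for all detected genes, those under the floor on both arrays counted as 0.

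Of 13 detected negative regulators 1 passed 4-fold, where 4.66% of all detected genes had a range of that size. Ptpn6, the phosphatase SHP-1, was 3660 in CD8+CX3CR1+, 897 in CD8+CX3CR1-, 3550 in CD4+ and 3056 in DN DCs. Its difference of 4.08-fold in the CD8+ pair lay at the threshold, and averaging its probe sets gave a log2 difference of 1.23. CD8+CX3CR1- was 3.96-fold below CD4+, just short of a call, and quantile normalization gave -2.01 there, past 4-fold. The list's median in the CD8+ pair was -0.14. Socs1, Dok3 and Spry2 were under the floor on all 4 arrays.

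Transcription factors of DC and myeloid development had 8 called of 21 detected, where 4.66% of all detected genes reached 4-fold in some pair, and 7 others had a range under 2-fold. The list was chosen with earlier results of these data known, so nothing particular to it is read from that count. Runx2 was not analysed here. Spib, an Ets factor, was 1556 in CD8+CX3CR1+, 60.3 in CD8+CX3CR1-, 577 in CD4+ and 704 in DN DCs. Irf4 was 880, 3.5, 305 and 407, the second under the floor, so that CD8+CX3CR1- lay at least 15.9-fold below CD8+CX3CR1+, though with probe sets averaged that log2 difference was 1.31. Klf4, at 1103, 121, 477 and 1008, was lowest on the CD8+CX3CR1- array as well, and so was Relb at 2265, 631, 3119 and 1782, whose difference from CD4+ was -1.96 with the arrays scaled to an equal median, under 4-fold. These 4 had their lowest signal in CD8+CX3CR1- DCs, as Csf1r did. Of the 21 detected factors, 12 were lowest on that array, a tie at the floor counted for the first array.

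The other 4 called factors were Irf8, Id2, Tcf4 and Myb. Irf8, required for CD8 DCs, was 1409 in CD8+CX3CR1+, 13285 in CD8+CX3CR1-, 617 in CD4+ and 4847 in DN DCs, and Id2 was 236, 1389, 425 and 566, so both were highest where Csf1r was lowest. Tcf4, which directs plasmacytoid DCs, was 3489, 270, 470 and 1135, lowest in CD8+CX3CR1- DCs too, and its call between CD8+CX3CR1- and DN was lost with probe sets averaged (-0.72) and without probe sets named _x, _s or _a (-1.88). Myb, at 862, 488, 96.0 and 230, was higher on both CD8+ arrays than on the others, as Flt3 was, with differences from CD4+ of 1.62 and 1.01, under 4-fold, when its probe sets were averaged. Spi1, which encodes PU.1 and was singled out after its values were seen, ranged by 1.32-fold, from 919 in CD8+CX3CR1- to 1214 in CD8+CX3CR1+.

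Of 11 genes of the list of STAT5 targets and survival genes, 1 was called. Ccnd2, which encodes cyclin D2, was 229 in CD8+CX3CR1+, 134 in CD8+CX3CR1-, 1636 in CD4+ and 671 in DN DCs. The CD4+ array was 12.2-fold above CD8+CX3CR1- and 7.15-fold above CD8+CX3CR1+, and DN 5.02-fold above CD8+CX3CR1-. With probe sets averaged each of these was under 4-fold, at log2 differences of -1.98, -1.65 and -1.70. CD4+ was the highest and DN the next, as for Csf3r. Over all 6 lists, 67 genes were detected, of which 11 had a range of at least 4-fold and 36 one under 2-fold. Of the 11, 8 were the transcription factors above, so nothing is read from this count beside the 4.66% of all detected genes.

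**Figure D4:**
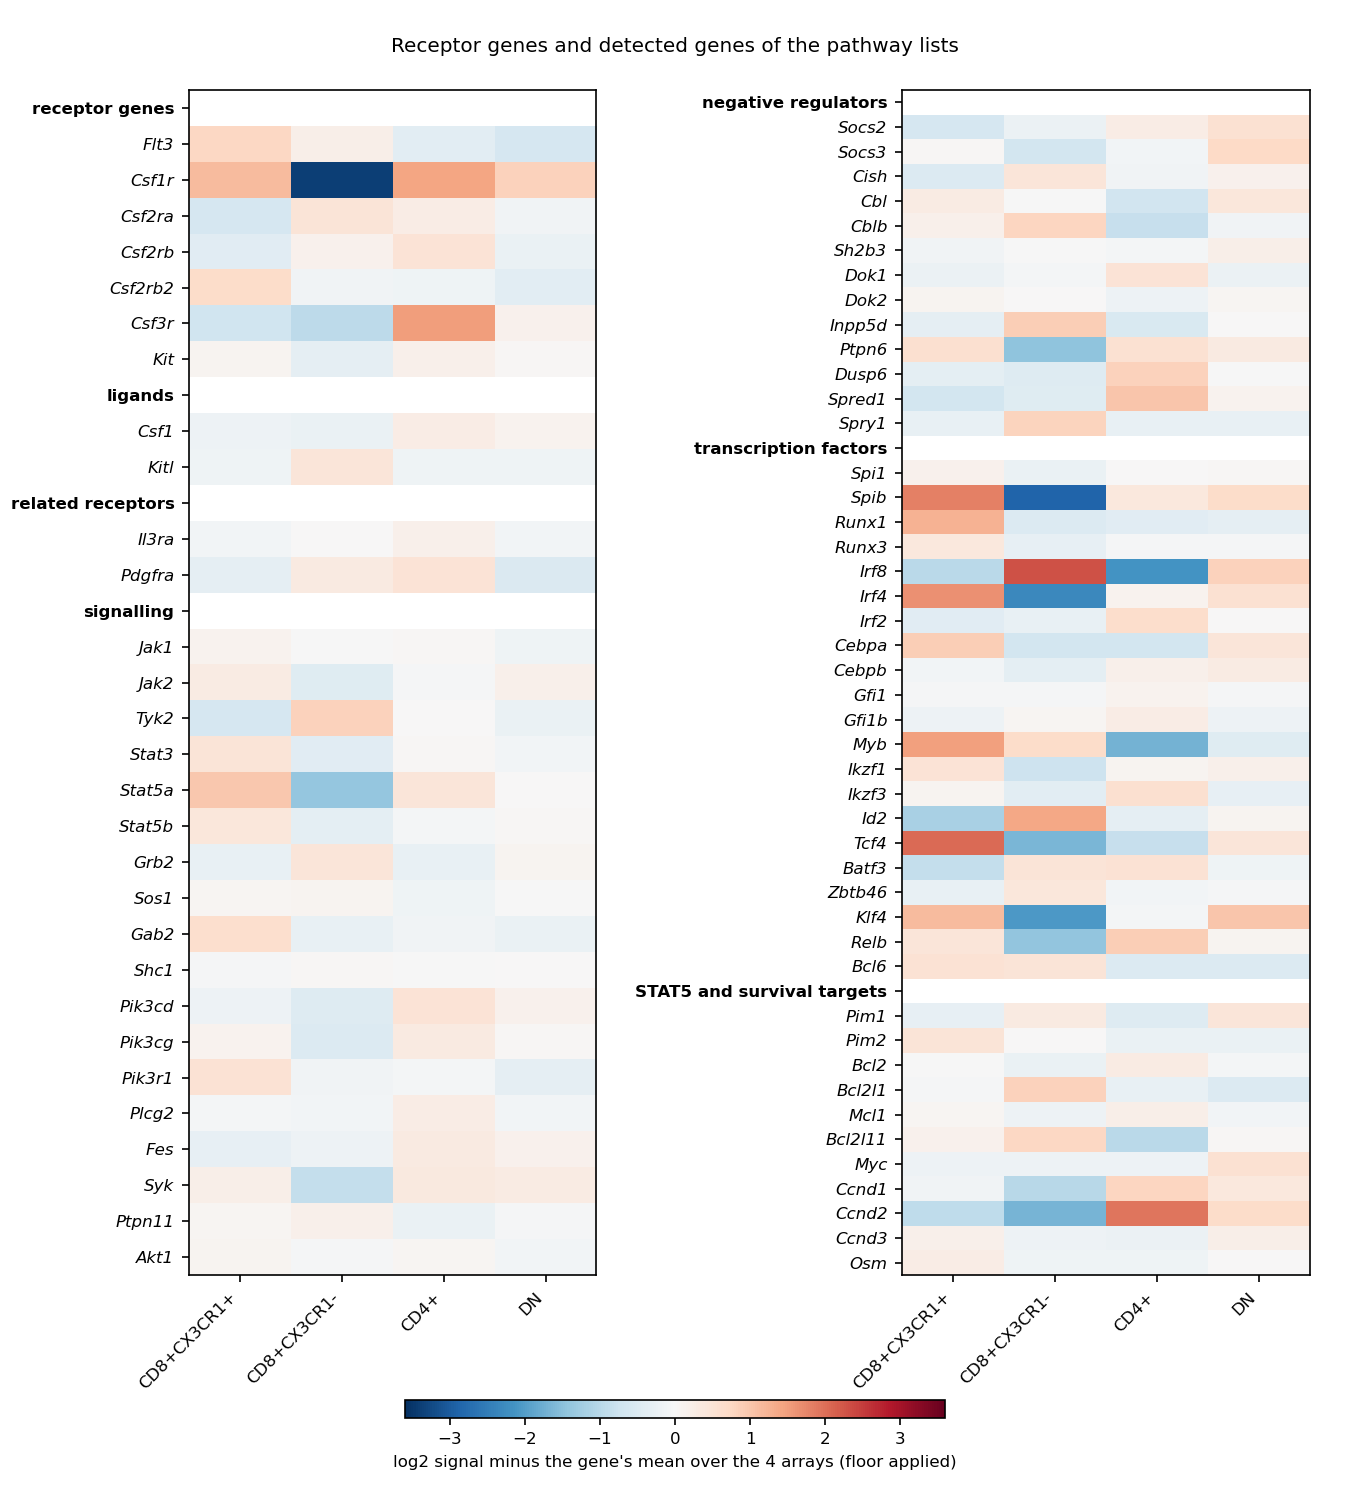
Log2 signal minus the gene's mean over the 4 arrays (colour) for the receptor genes and the 67 detected genes of 6 pathway lists, 1 column per array. Csf1r, Stat5a, Ptpn6, Spib, Irf4, Tcf4, Klf4 and Relb are lowest on the CD8+CX3CR1- array, Irf8 and Id2 are highest there, and Csf3r and Ccnd2 are highest on the CD4+ array. Of the 67 genes, 29 are lowest on the CD8+CX3CR1- array, a tie at the floor counted for the first array.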

How the data were processed

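Each of 4 sorted DC subsets of mouse spleen gave RNA for 1 Affymetrix mouse expression array. The authors deposited 1 linear intensity (MAS5 signal) per probe set; MAS5 is named in the submitters' processing notes, with no version. MAS5 subtracts background and mismatch signal and scales each array, here to a trimmed mean of 150.0, so a difference in total RNA per cell cannot be seen.

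Groups were taken from the titles. Of 45101 probe sets, 34945 had 1 gene symbol through the platform annotation; the 7 members matched RefSeq by Entrez identifier. The floor of 55.3 is the 90th percentile of the pooled signals of 130 probe sets whose genes encode odorant, taste and pheromone receptors or keratin-associated proteins of hair. On single arrays this percentile was 46.5 to 62.2. A gene is represented by its brightest probe set and detected if above the floor on 1 array or more; where 1 of the arrays compared is below it, the fold is a bound, and a call is 4-fold. The number of arrays limits the precision, and no test was possible. The steps were tested on simulated data. Members and lists were chosen with earlier results of these data known. The rule for named genes took all members, each pathway gene called in a pair (otherwise up to 4 with the largest range), and the 5 nearest profiles of members with a 4-fold range, passing over RIKEN, Gm and LOC names. Marker lists for DCs, CD8 DCs, CD4 DCs, B cells, T cells and NK cells were also summed. Alternatives were other scalings, floors, probe set rules and a 2-fold threshold. Python 3.11.15, numpy 2.4.6 and pandas 2.3.3 were used.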

Additional observations from a re-analysis of the deposited data

How the results depend on the processing

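Members were called in the same numbers under quantile normalization, the floors at the 75th and 95th percentile or at each array's own percentile, no floor, averaged probe sets and brightest probe sets without _x, _s and _a names, under which Kit had no probe set left. With the arrays scaled to an equal median, 0 members were called between CD8+CX3CR1+ and CD4+ in place of 1, as the log2 difference of Csf3r became -1.89; this scaling moved the median over genes above the floor on either array of that pair from -0.05 to 0.26. With a threshold of 2-fold, 2 members were called between CD8+CX3CR1+ and each of CD8+CX3CR1-, CD4+ and DN, 2 between CD8+CX3CR1- and DN, and 1 between CD4+ and DN. Of 329 recomputed member differences, 328 stayed on their side of 4-fold and 0 of the called ones changed sign. Signs changed in 13, none of which had a main log2 difference above 0.55. Many of the 329 could not move. A change of floor leaves differences between signals above it as they are, and averaging leaves genes with 1 probe set as they are. Of 638 recomputed differences of pathway genes, 11 lost the 4-fold call and 6 gained it. No paired analysis was possible because each subset has 1 array. Signals near the floor, as for Csf3r on the CD8+ arrays, limit what can be seen.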

Other observations

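The other marker lists are given as summed signal on the CD8+CX3CR1+, CD8+CX3CR1-, CD4+ and DN arrays. The 7 CD8 DC markers summed to 4056, 13055, 3196 and 2338 and the 6 CD4 DC markers to 2774, 275, 5709 and 5189. Of the latter, Sirpa was 731, 64.1, 963 and 687 and Dtx1, a Notch target, 776, 49.9, 2895 and 3111. B cell markers summed to 1003, 495, 728 and 390 over 4 genes, nearly all of it from Cd79b (593, 3.1, 402 and 178) and Ms4a1 (361, 446, 202 and 162), with Cd79a under the floor on all 4 arrays. T cell markers summed to 159, 59.5, 42.5 and 137 over 4 genes. The 5 markers of NK and innate lymphoid cells summed to 699, 203, 407 and 473, of which Il7r, at 559, 107, 229 and 259, made up most.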
